A study of Mus musculus with 6 samples.

Results

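Blood clotting at a cell surface is started and restrained by a small set of membrane and secreted proteins, and 9 of their genes are described here: Thbd, Procr, F3, Tfpi, Habp2, Serpine2, Plat, Plau and Plaur. They were chosen by symbol as a functional group, selected on a reading of the Cre over Flp ratios measured in these same libraries. Each was found by its Ensembl identifier among the 49671 genes listed in the count tables, many of them at 0. All 9 passed the filter on low counts, which left 15355 genes for testing. Because that contrast was known when the genes were picked, their Cre over Flp values are given as a description.

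RNA came from iRECs, induced renal epithelial cells, which are fibroblasts converted to a tubule-like state with kidney transcription factors. The 3 Cre cultures (Pkd1 -/-, clones 4, 7 and 21) had been transduced with Cre recombinase, and the 3 Flp cultures (Pkd1 fl/fl, the same clones) with Flp recombinase, which keeps the floxed gene. All 6 cultures carry the B6.129S4-Pkd1tm2Ggg/J floxed background and were harvested at confluence in fibroblast medium with serum. Each pair is 1 clone, and the labels do not tie the clones to separate animals, so any p-value measures the spread between clone pairs, which may be technical.

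As background, tissue factor (F3) binds factor VII and starts the cascade that ends in thrombin, and Tfpi blocks that first complex. Thrombomodulin (Thbd) binds thrombin and redirects it to activate protein C, which Procr presents at the membrane, while protease nexin 1 (Serpine2) traps thrombin directly. Plau (urokinase) and Plat (tissue plasminogen activator) turn plasminogen into plasmin, Plaur holds urokinase at the surface, and renal tubule cells are a known source of urokinase.

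Total counts ranged from 29451753 to 46918341 in Cre and from 25196120 to 40274665 in Flp libraries. Levels are CPM, counts scaled to library size with TMM factors, and a count of 0 allowed at most 0.0632 to 0.121 CPM (3 counts, counting error only). Pkd1, the targeted gene, was at 145, 105 and 118 CPM in Cre and 199, 229 and 166 CPM in Flp of clones 4, 7 and 21, so Cre was lower in every clone. Epithelial markers were abundant, with Krt18 at 938 CPM and Cdh16 at 817 CPM on average, and the reprogramming factors Hnf4a and Emx2 were at 1270 and 904 CPM. Summed fibroblast markers came to 8.95 to 13.9 CPM in Cre and 4.73 to 29.4 CPM in Flp, with Pdgfrb (6.88 CPM) and Col1a1 (6.03 CPM) on top and Thy1 at 0. Their part in the results was not tested. Endothelial cells are the classic site of Thbd and Procr. Their 10 markers summed to 2.61 to 5.42 CPM in Cre and 2.78 to 4.77 CPM in Flp. Of these, Vwf (2.99 CPM) and Tek (0.649 CPM) led, Cdh5, Emcn, Kdr and Cldn5 were at 0 in all libraries, and 2 of 10 were tested. The 5 platelet markers summed to 37.9 to 48.7 CPM in Cre and 24.5 to 58.4 CPM in Flp, almost wholly Ppbp (35.7 CPM) and Itga2b (2.91 CPM). The 5 macrophage markers summed to 193 to 299 CPM in Cre and 118 to 204 CPM in Flp, almost wholly Csf1r (199 CPM). Cd68 averaged 5.88 CPM, Ptprc 0.0235 CPM and Itgam 0.0146 CPM, and Adgre1 was at 0. Of its exons, Csf1r shares 15.1% with Hmgxb3 on the other strand, and the strand setting of the counts is not given in the sources used here. Csf1r was higher in Cre of every clone, with log2 ratios of 0.28, 1.40 and 0.34 and a log2 fold change of 0.67 (SE 0.24, unadjusted p = 0.0323 and adjusted p = 0.6864 by edgeR), and its part in the results was not tested. In bulk RNA, fewer cells of a type and less RNA per cell cannot be told apart.

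The promoters of F3 and Serpine2 are printed because these were the members whose Cre and Flp libraries did not overlap, and that of Habp2 because its fold difference was the widest of the 9. RefSeq windows on GRCm38.p6 run from 250 bases before to 50 after the annotated start, 5′ to 3′ in the gene's direction. Capitals mark matches, on either strand, to the GC box GGGCGG, the TATA box TATAAA, the AP-1 motif TGANTCA, the cyclic AMP element TGACGTCA, the EGR motif GCGGGGGCG and the CCAAT box CCAAT.
F3 (chr3:121723287-121723586, plus strand): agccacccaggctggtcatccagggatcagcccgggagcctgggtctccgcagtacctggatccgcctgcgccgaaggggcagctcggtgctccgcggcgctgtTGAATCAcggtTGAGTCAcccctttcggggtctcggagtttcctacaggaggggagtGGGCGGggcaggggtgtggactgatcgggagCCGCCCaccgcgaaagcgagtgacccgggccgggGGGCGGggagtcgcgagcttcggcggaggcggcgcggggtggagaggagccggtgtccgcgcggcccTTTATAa
Serpine2 (chr1:79858616-79858915, minus strand): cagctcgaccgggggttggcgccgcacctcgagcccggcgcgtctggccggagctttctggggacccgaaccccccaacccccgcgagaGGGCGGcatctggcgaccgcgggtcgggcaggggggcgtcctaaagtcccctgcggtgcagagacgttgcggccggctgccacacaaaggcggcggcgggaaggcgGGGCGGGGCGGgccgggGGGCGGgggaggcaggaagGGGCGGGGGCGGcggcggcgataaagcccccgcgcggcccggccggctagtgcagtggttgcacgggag
Habp2 (chr19:56287662-56287961, plus strand): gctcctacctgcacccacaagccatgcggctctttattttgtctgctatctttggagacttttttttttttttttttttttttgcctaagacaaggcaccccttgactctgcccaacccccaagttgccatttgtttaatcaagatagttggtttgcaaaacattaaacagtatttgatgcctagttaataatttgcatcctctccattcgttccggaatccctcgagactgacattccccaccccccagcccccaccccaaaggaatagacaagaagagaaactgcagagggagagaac
The F3 window held 2 AP-1 matches, 3 GC boxes and 1 TATA match, and its base composition was 70.3% G and C. That TATA match lay on the reverse strand, 43 bases after the annotated start. Serpine2 had 6 GC boxes, some overlapping each other and its 1 EGR match, at 77.7% G and C. No letters of these motifs were found in the Habp2 window, at 44.3% G and C. The median over all windows was 52.7%. Of 32817 windows of this length, 35.6% held a GC box, 13.6% a TATA match, 7.81% an AP-1 match, 1.79% the cyclic AMP element, 2.91% an EGR match and 37.4% a CCAAT box. Among the other members, Procr had 1 AP-1 match, and Plaur had 1 AP-1 match, 1 EGR match and 3 GC boxes. Tfpi had 2 windows with 1 GC box each, and 1 TATA match in the first. A window was available for 6 of the 9 genes, with Thbd, Plat and Plau not among them.

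Levels between genes were compared per kilobase of merged exons. Plau was the most abundant member, at 365 ± 96.8 CPM per kb in Cre and 501 ± 239 CPM per kb in Flp (SD, n = 3 each), and over all libraries it held rank 17 among the genes tested with a known exon length. F3 followed at 144 ± 12.002 CPM per kb in Cre and 203 ± 18.4 CPM per kb in Flp, then Plaur at 54.3 ± 8.06 and 65.3 ± 14.6 CPM per kb, and Plat at 45.4 ± 4.33 and 34.8 ± 12.3 CPM per kb. In both groups the means of these 4 genes exceeded those of the other 5. Serpine2 averaged 12.2 ± 6.10 CPM per kb in Cre and 4.29 ± 0.970 CPM per kb in Flp. Thbd averaged 7.80 ± 4.44 CPM per kb in Cre and 18.4 ± 12.8 CPM per kb in Flp, and Procr 7.05 ± 2.59 and 10.7 ± 4.73 CPM per kb. The low end was held by Tfpi, at 4.94 ± 7.29 and 1.18 ± 1.29 CPM per kb in Cre and Flp, and Habp2, at 1.23 ± 1.59 and 4.33 ± 4.87 CPM per kb. Plau, F3 and Plaur kept that order without overlap within either group. In Cre libraries Plaur and Plat overlapped, as did each gene with the next from Serpine2 through Thbd, Procr and Tfpi to Habp2. In Flp libraries Plat overlapped Thbd, Thbd overlapped Procr, Procr overlapped Habp2 and Habp2 overlapped Serpine2. The genes of a library share its depth.

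**Figure D1:**
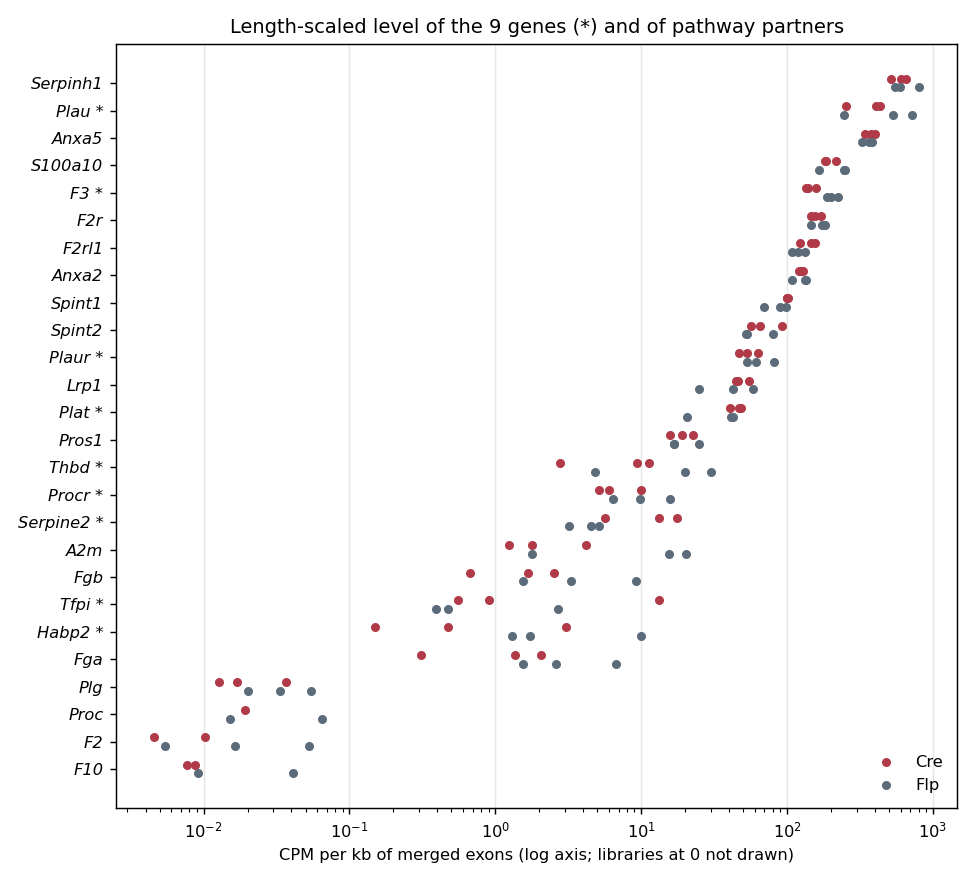
Level of the 9 genes (asterisks) and of partners from the pathway lists, in CPM per kb of merged exons on a log axis, 1 point a library, with Cre points above Flp points in each row. The means of Plau, F3, Plaur and Plat lie above those of the other members, and Plg, Proc, F2 and F10 lie below all 9.

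The first pair of members restrains thrombin. Thbd (ENSMUSG00000074743, chromosome 2, 148404466 to 148408188, GRCm38) was at 34.9, 10.4 and 41.9 CPM in Cre clones 4, 7 and 21, and at 74.3, 18.0 and 113 CPM in Flp of those clones. Cre was the lower culture of every pair, but the groups overlapped because both clone 7 cultures lay below all others. The clone ratios were -1.09, -0.79 and -1.43 on the log2 scale, and the fitted log2 fold change was -1.11 (SE 0.16). Procr (chromosome 2, 155751117 to 155755471) had 20.3, 10.5 and 12.2 CPM in Cre cultures, against 20.0, 12.98 and 32.0 CPM in Flp cultures. Its pairs differed in extent, with clone ratios of 0.02, -0.31 and -1.39, and the groups overlapped. The fitted log2 fold change of Procr was -0.56 (SE 0.30), or -0.15 without clone 21 and -0.86 without clone 4. Both genes lie on distal chromosome 2, and their surroundings moved in clone 21. There the median log2 ratio of 137 expressed genes within 10 Mb of Thbd was -0.55, with 133 of them below 0, and that of 168 genes around Procr was -0.56, with 161 below 0. In clones 4 and 7 these medians lay between -0.03 and 0.01, though the 11 genes within 2 Mb of Thbd had medians of 0.06 in clone 4 and -0.16 in clone 7. Less the neighbours' median, the log2 ratio of Thbd was -1.06, -0.80 and -0.87 in clones 4, 7 and 21, and that of Procr 0.04, -0.32 and -0.83. The part of the surroundings in these ratios was not tested.

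Tissue factor and its inhibitor come next. F3 (ENSMUSG00000028128, chromosome 3, 121723537 to 121735048) was at 399, 342 and 351 CPM in Cre clones 4, 7 and 21 and at 564, 473 and 504 CPM in Flp. Every Cre library lay below every Flp library, and no other member was so uniform. Its clone ratios were -0.50, -0.47 and -0.52 on the log2 scale, an SD of 0.03, with a fitted log2 fold change of -0.50 (SE 0.10). Genes within 10 Mb of F3 had median log2 ratios between -0.03 and -0.01 in the 3 clones, but in clone 7 the median was -0.11 within 5 Mb and -0.20 over the 27 genes within 2 Mb, 8 of which lay below F3. Tfpi (chromosome 2, 84432855 to 84476775) behaved otherwise, at 4.92, 3.05 and 73.0 CPM in Cre and 2.14, 2.59 and 14.6 CPM in Flp. Both cultures of clone 21 stood above all other libraries, and within each pair Cre was the higher. The clone ratios of Tfpi were 1.18, 0.23 and 2.32, and its fitted log2 fold change of 1.30 (SE 0.41) became 0.71 without clone 21. Its 91 neighbours within 10 Mb, on a stretch of chromosome 2 far from Thbd, had medians between -0.03 and 0.04. Per kilobase, F3 exceeded Tfpi 175-, 242- and 10.4-fold in Cre clones 4, 7 and 21, and 570-, 396- and 74.6-fold in Flp.

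**Figure D2:**
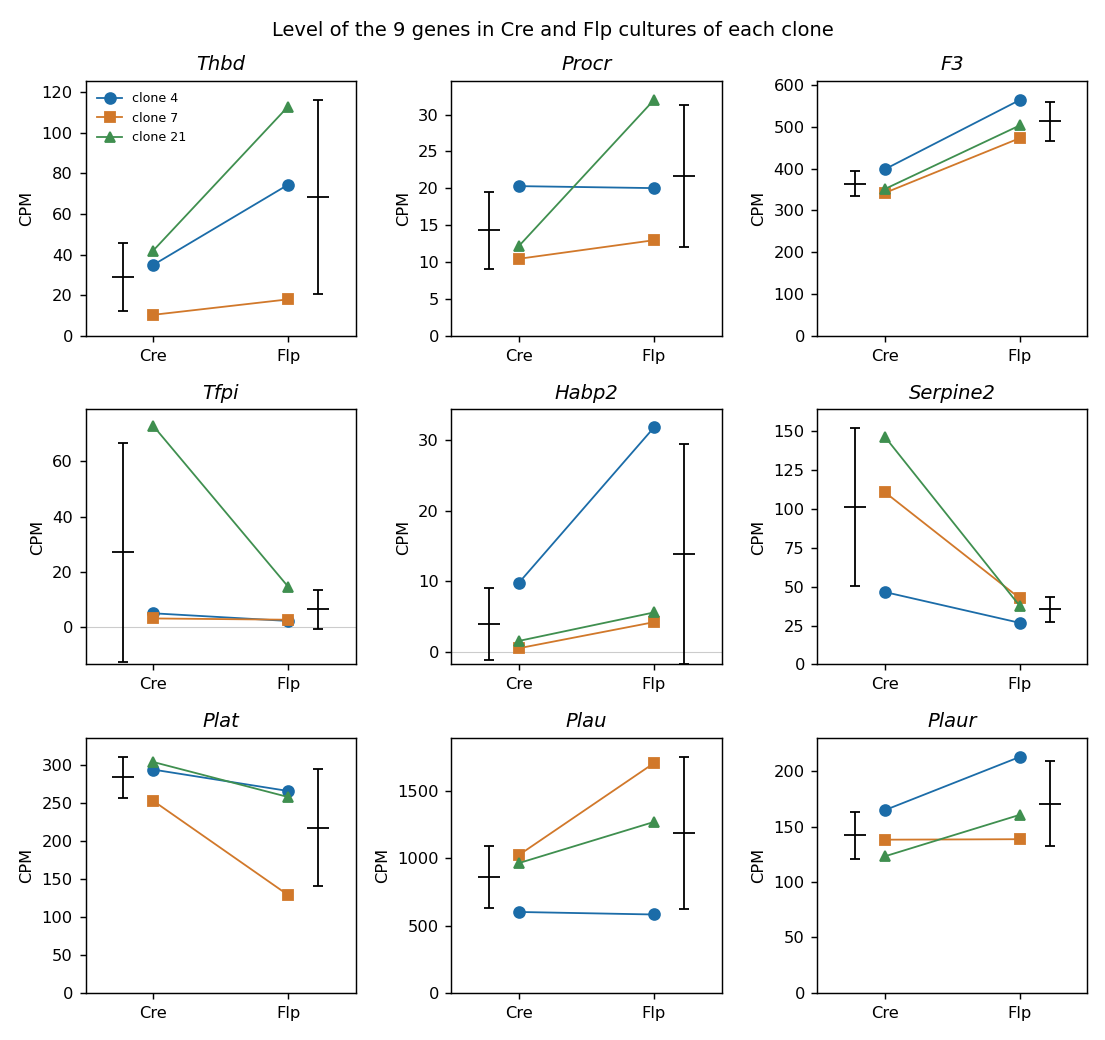
CPM of each gene (vertical axis, a scale per panel) in Cre (left) and Flp (right) cultures, with a line joining the cultures of a clone and black bars at the mean ± SD of 3 libraries. Cre and Flp points separate for F3 and Serpine2, while for Thbd, Tfpi and Habp2 the clones differ widely in level. A lower bar below 0 is an SD larger than the mean.

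Habp2 and Serpine2 encode a protease and a protease inhibitor. Habp2, a hyaluronan-binding serine protease able to cleave factor VII and pro-urokinase in vitro, was at 9.77, 0.480 and 1.52 CPM in Cre clones 4, 7 and 21 and at 31.8, 4.18 and 5.55 CPM in Flp. Clone 4 was the highest of each group, and its Cre culture exceeded the Flp cultures of the other clones, so the groups overlapped. The clone ratios were -1.70, -2.98 and -1.83 on the log2 scale, with a fitted log2 fold change of -2.15 (SE 0.34), the widest of the 9. The level in Cre clone 7 rested on 14 reads, for which the exact Poisson interval (95%, counting error only) ran from 0.262 to 0.805 CPM. Habp2 (chromosome 19, 56287137 to 56320822) shares 268 bases, or 8.39%, of its exons with Nrap on the other strand, and the strand setting of the counts is not given in the sources used here. Serpine2 (ENSMUSG00000026249, chromosome 1, 79794197 to 79861180) went the other way, at 46.5, 111 and 146 CPM in Cre and 26.7, 42.4 and 37.4 CPM in Flp. The lowest Cre library lay just above the highest Flp library, and the Flp cultures were close together. Its clone ratios were 0.80, 1.38 and 1.96, with a fitted log2 fold change of 1.39 (SE 0.23). Neighbours within 10 Mb of Habp2 had medians between -0.03 and 0.11, and those of Serpine2 between -0.04 and 0.00.

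The plasminogen activators and the urokinase receptor complete the members. Plat (chromosome 8, 22757727 to 22782844) was at 294, 253 and 304 CPM in Cre clones 4, 7 and 21 and at 266, 129 and 258 CPM in Flp. The Flp culture of clone 7 was low, and the other 5 libraries lay between 253 and 304 CPM. Clone ratios were 0.15, 0.97 and 0.24, and the fitted log2 fold change of 0.45 (SE 0.18) became 0.19 without clone 7. Plau (chromosome 14, 20836660 to 20843385) was at 601, 1025 and 964 CPM in Cre and 582, 1707 and 1270 CPM in Flp. Both cultures of clone 4 were low, and in that clone Cre and Flp were close. Its clone ratios were 0.05, -0.74 and -0.40, and the fitted log2 fold change of -0.36 (SE 0.17) became -0.17 without clone 7 and -0.57 without clone 4. Around Plau, 77 genes within 10 Mb had medians of 0.20, -0.22 and 0.07 in clones 4, 7 and 21. Their part in the ratios of Plau was not tested. Plaur (chromosome 7, 24462484 to 24475968) was at 165, 138 and 123 CPM in Cre and 213, 139 and 161 CPM in Flp. In clone 7 the cultures were level, with clone ratios of -0.37, 0.00 and -0.38, and the fitted log2 fold change was -0.25 (SE 0.12). Its 243 neighbours had a median of -0.15 in clone 4, against 0.05 and -0.01 in clones 7 and 21. Per kilobase, Plau exceeded Plat 5.39-, 10.7- and 8.37-fold in Cre clones 4, 7 and 21 and 5.78-, 34.9- and 12.99-fold in Flp. Urokinase transcripts were thus the larger part of the activator pool in all 6 libraries, from 84.4% to 91.4% in Cre and from 85.3% to 97.2% in Flp.

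**Figure D3:**
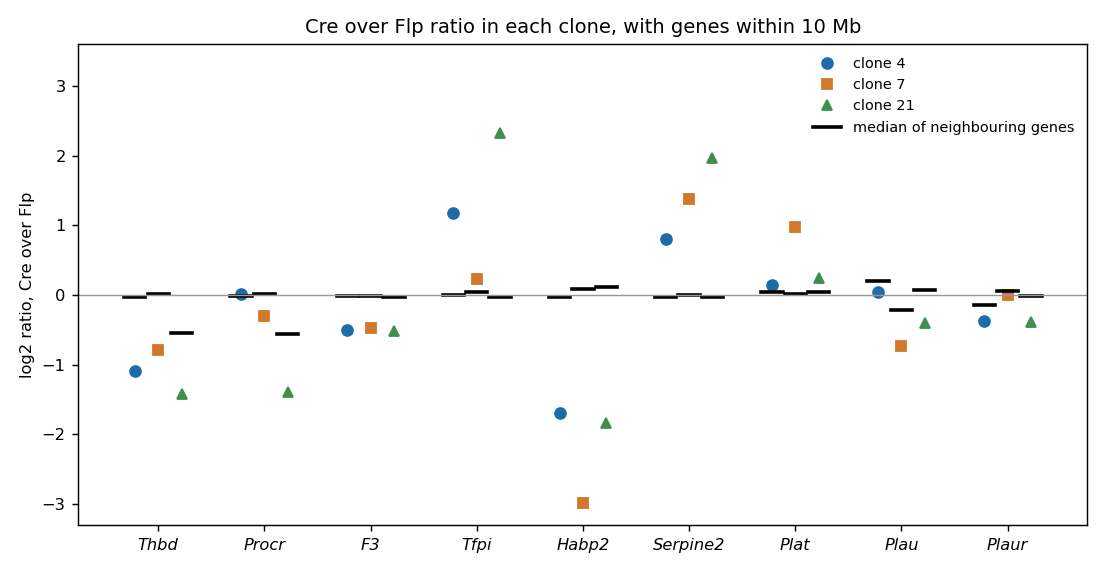
Log2 ratio of Cre over Flp (vertical axis) for each gene in clones 4, 7 and 21, with short black bars at the median log2 ratio of expressed genes within 10 Mb in the same clone. The bars lie near 0 except around Thbd and Procr in clone 21, at -0.55 and -0.56, and to a lesser extent around Plau and Plaur.

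Counted over the 9 members, Cre was lower in all 3 clones for 4 genes, where 13.1% of all genes tested were, and higher in all 3 for 3 genes, where 14.6% were (27.7% in either direction). The directions of Procr and Plau were mixed, each being near 0 in clone 4. Plaur, counted as lower, was level in clone 7, at a log2 ratio of -0.0045. In 1 member, F3, all Cre libraries lay below all Flp libraries, as in 3.95% of genes tested, and in 1, Serpine2, they lay above, as in 4.19% (8.13% in either direction). By edgeR's quasi-likelihood test with the clone as a block, 0 of 9 passed an adjusted p of 0.05, as did 0% of genes tested. At an unadjusted p under 0.05, 3 were lower and 2 higher, against 3.28% and 3.54% of genes tested (6.82% in all, 1047 genes). DESeq2 with the clone block called 3 lower (Thbd, F3 and Habp2) and 1 higher (Serpine2), where it called 1.44% of genes. With no filter on low counts, edgeR passed 4 (Thbd, Habp2, Serpine2 and Tfpi), against 0.792% of genes. Limma-voom with the block called 0 of all genes. The members' median log2 fold change was -0.36, against 0.00 over all genes tested. As the members were picked with this contrast known, nothing is read from these counts.

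In the authors' deposited table, 3 members were called lower (Thbd, F3 and Habp2) and 2 higher (Serpine2 and Tfpi) at an adjusted p under 0.05, where 0.555% and 0.817% of genes with an adjusted p were, or 1.37% in all. The log2 fold changes listed there were -0.94 for Thbd, -0.46 for F3, -1.10 for Habp2, 1.09 for Serpine2 and 0.90 for Tfpi in the authors' deposited table. Each was nearer to 0 than the value fitted here, and the design formula behind that table is not given in the sources used here. With the clone block, DESeq2 here gave -1.11 for Thbd, -0.50 for F3, -2.14 for Habp2, 1.38 for Serpine2 and 1.28 for Tfpi. Without the block it gave -1.23, -0.50, -1.82, 1.51 and 2.07 in that order. The cause of the difference from the deposited values was not tested. For the members not called there, the log2 fold changes in the authors' deposited table were 0.36 for Plat, -0.32 for Plau, -0.37 for Procr and -0.22 for Plaur.

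How far the clones differed from each other was asked with the clone term of the same fit. That contrast differs from Cre over Flp but shares its residual spread. Choosing members by their Cre over Flp ratios can favour genes with small residuals, so the clone counts below are not free of that choice. In members the remainder of the variance of log2 CPM ran from 0.157% (F3) to 29.9% (Procr), against a median of 33.4% over all genes tested. The clone, with 2 degrees of freedom against 1 for Cre or Flp, had the larger share in every member except F3 and Serpine2. It took 82.0% of the variance of log2 CPM for Tfpi, 80.9% for Plau, 76.0% for Thbd, 64.1% for Habp2, 63.1% for Plaur, 51.0% for Plat and 44.2% for Procr. The exceptions were F3, with 85.8% of its variance between Cre and Flp and 14.0% between clones, and Serpine2, with 62.5% and 30.1%. Per degree of freedom the order turned for Habp2, Plat and Procr. Over all genes tested the median shares were 12.9% between Cre and Flp and 41.1% between clones, so the clone had the larger median there too. The members were chosen on the Cre over Flp ratios, so nothing is read from their Cre or Flp shares. Averaged over both cultures, Thbd stood at 54.6, 14.2 and 77.3 CPM in clones 4, 7 and 21. Habp2 was highest in clone 4 (20.8, 2.33 and 3.54 CPM), Tfpi in clone 21 (3.53, 2.82 and 43.8 CPM) and Plau in clone 7 (592, 1366 and 1117 CPM), so no clone led throughout. By edgeR's clone term, 0 of 9 members passed over all genes, with adjusted p of 0.1540 for Thbd, 0.1703 for Habp2, 0.1996 for Tfpi, 0.3709 for Plau and from 0.5369 to 0.8080 for the other members. It called 1 gene in all, or 0.00651%. At an unadjusted p under 0.05, 6 of 9 members were counted, against 8.0% of genes. A likelihood ratio test in DESeq2 called 5 of 9 (Thbd, Tfpi, Habp2, Plau and Serpine2), against 2.86% of genes, so the clone calls depend on the test.

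**Figure D4:**
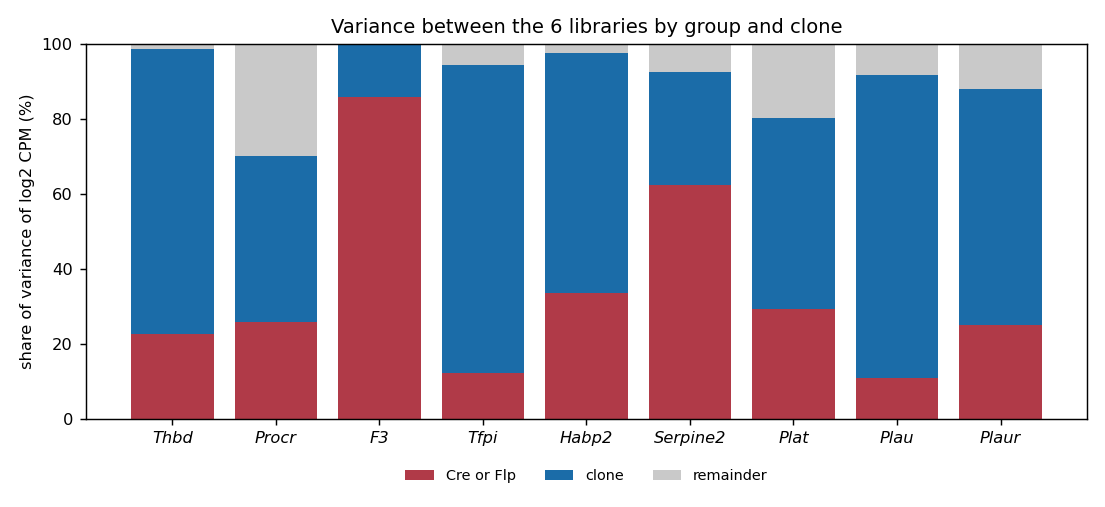
Share of the variance of log2 CPM over the 6 libraries (vertical axis, %) between Cre and Flp, between clones and in the remainder, a bar for each gene. F3 and Serpine2 have their largest share between Cre and Flp, and the other 7 genes between clones, a share with 2 degrees of freedom against 1. The genes were chosen on the Cre over Flp ratios, so nothing is read from the Cre or Flp shares.

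Partners of these proteins were then described from lists by role. The lists were drawn up with earlier results of these data known, and the genes named from them are those at an unadjusted p under 0.05 and the most abundant. Among inhibitors of fibrinolysis, A2m, a broad protease trap, was at 29.6, 12.5 and 8.76 CPM in Cre clones 4, 7 and 21, against 12.5, 142 and 109 CPM in Flp of those clones. Cre was the higher culture in clone 4 and the lower in clones 7 and 21, and the groups overlapped. Its clone ratios were 1.24, -3.50 and -3.63 on the log2 scale, with a fitted log2 fold change of -2.26 (SE 1.15, edgeR adjusted p = 0.8092), or -3.58 without clone 4, -1.22 without clone 7 and -1.15 without clone 21.

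Of 20 coagulation factors and their processing genes, 9 were tested, and 0 passed edgeR over all genes. At an unadjusted p under 0.05, 2 were lower and 0 higher, against 3.28% and 3.54% of genes tested. All 9 had a negative log2 fold change, with a median of -0.45, where 49.3% of all genes were negative. Fga, Fgb and Fgg lie together on chromosome 3 (83007724 to 83049863), so the 9 are not independent and nothing is read from this count. Several plasma factors of the list were near absent, with F8, F9, F11 and F13a1 at 0 and F2 at most 0.242 CPM in any library. Kng1 reached 3.04 CPM in Flp clone 21. The fibrinogen chains Fga, Fgb and Fgg were measurable. Fgg, the lowest, was at 0.852, 0.0686 and 1.20 CPM in Cre clones 4, 7 and 21 and at 1.70, 2.63 and 2.36 CPM in Flp. All its Cre libraries lay below all Flp libraries, with Cre clone 7 under the level of 3 counts (0.103 CPM). Its log2 fold change was -1.91 (SE 0.82, edgeR adjusted p = 0.7376). Fga was at 6.18, 0.926 and 4.11 CPM in Cre clones 4, 7 and 21 and at 7.88, 4.67 and 20.4 CPM in Flp, a log2 fold change of -1.65 (SE 0.47, edgeR adjusted p = 0.6344). Fgb was at 9.65, 2.57 and 6.34 CPM in Cre and 12.6, 5.94 and 35.2 CPM in Flp, a log2 fold change of -1.36 (SE 0.42, edgeR adjusted p = 0.6455), or -0.79 without clone 21. Fga and Fgb were lower in Cre of every clone, with overlapping groups, and DESeq2 with the block called both (adjusted p = 0.0220 and 0.0456). With no filter on low counts, edgeR also called both (adjusted p = 0.0258 and 0.0374). The authors' deposited table lists adjusted p-values of 0.0594 for Fga and 0.0412 for Fgb. Other hepatocyte markers varied in level. Serpina1a averaged 16.8 CPM, above Fga and Fgb, and like them was highest in Flp clone 21 (39.8 CPM). Unlike them, it was higher in Cre of clone 7. Its log2 ratios in clones 4, 7 and 21 were -0.29, 2.51 and -1.52, with a log2 fold change of 0.14 (SE 0.79). Alb was at most 0.113 CPM in any library. The 5 listed markers, Fga among them, summed to 17.5 to 21.5 CPM in Cre and 8.53 to 62.2 CPM in Flp. Their part in the Fga and Fgb values was not tested. Mcfd2 and Lman1, the receptor pair that carries factors V and VIII out of the endoplasmic reticulum, were the most abundant of the list, at log2 fold changes of -0.13 and -0.20.

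Among 11 other anticoagulant genes, 8 were tested and 0 passed by edgeR (0 also at an unadjusted p under 0.05 and 0 by DESeq2), with 4 negative and a median log2 fold change of 0.01. The phospholipid-binding Anxa5 and Pros1, the cofactor of activated protein C, were the most abundant, at log2 fold changes of 0.05 and -0.02. Proc itself, the substrate of the thrombomodulin pathway, was at most 0.162 CPM in any library. Of the 4 genes listed as thrombin receptors, F2r, the main one, had means of 525 CPM in Cre and 559 CPM in Flp. F2rl1, a trypsin-type receptor listed with it, was at 385 and 330 CPM. The log2 fold changes of F2r and F2rl1 were -0.09 and 0.22. These 2 were the ones tested, with 0 calls by edgeR and DESeq2 and 0 at an unadjusted p under 0.05. F2rl2 and F2rl3 were at most 0.0473 and 0.169 CPM in any library. Of 10 genes of plasminogen and its receptors, 6 were tested, again with 0 calls by either tool and 0 at an unadjusted p under 0.05, 3 negative and a median of -0.08. Plg, the substrate of urokinase, was at most 0.202 CPM, while S100a10 and Anxa2, which form a plasminogen-binding complex, were at log2 fold changes of -0.16 and 0.00.

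Of 13 other serpins, 5 were tested with 0 calls by edgeR or DESeq2 and 0 at an unadjusted p under 0.05, 2 negative and a median log2 fold change of 0.05. Serpinh1, a collagen chaperone, averaged 1442 CPM in Cre cultures and 1587 CPM in Flp cultures, and Serpinb6b at 294 and 284 CPM. Surface serine proteases and their inhibitors had 11 of 14 genes tested, 4 negative and a median of 0.04. With the filter on low counts edgeR gave 0 calls, as did DESeq2 with the clone block. At an unadjusted p under 0.05, 1 was higher and 1 lower, against 3.54% and 3.28% of genes tested. The higher was Tmprss2, a transmembrane protease, at 41.1, 132 and 53.2 CPM in Cre clones 4, 7 and 21 and 39.9, 22.3 and 18.7 CPM in Flp. Its log2 fold change of 1.38 (SE 0.47, edgeR adjusted p = 0.6738) became 0.77 without clone 7, and the authors' deposited table lists 0.77 with an adjusted p of 0.0242. The lowest Cre library of Tmprss2 lay just above the highest Flp library, both of clone 4. With no filter on low counts, edgeR called Tmprss2 (adjusted p = 0.0118), where it called 0.792% of genes. The lower was Prss22, at 0.331, 0.206 and 0.232 CPM in Cre and 1.05, 0.621 and 1.35 CPM in Flp. All Cre libraries lay below all Flp libraries, at a low level throughout, and its log2 fold change was -1.94 (SE 0.46, edgeR adjusted p = 0.6065). Spint1 and Spint2, inhibitors of membrane proteases, were at log2 fold changes of 0.25 and 0.21.

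The genes whose log2 CPM followed Thbd most closely over the 6 libraries, by Pearson correlation among 10741 genes of at least 5 CPM, were Nsa2 (r = 0.992), Pnrc1 (0.979) and Dlgap4 (0.977). Nsa2, Pnrc1 and Dlgap4 lie on chromosomes 13, 4 and 2, the last also that of Thbd. Their range was far narrower than that of Thbd. Nsa2 spanned 16.01 to 18.6 CPM in Cre and 16.8 to 21.5 CPM in Flp. For Serpine2 they were Lin28b (0.997), Actr8 (0.996) and Rcbtb1 (0.994). Rcbtb1, like Actr8 on chromosome 14, was at 60.0, 94.8 and 116 CPM in Cre clones 4, 7 and 21 and at 49.5, 58.4 and 56.4 CPM in Flp. With 6 libraries that share their clones, such values are reached among many genes and describe likeness only.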

How the data were processed

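For each library the authors deposited a table of raw counts, 1 whole number per Ensembl identifier, with no normalization. They also deposited a comparison table with a mean of normalized counts (a signal), a log2 fold change, its standard error, a Wald score, p-values and adjusted p-values. The submitters' processing notes name STAR (2.5.2b-2) and featureCounts (1.6.0.3), beside Trim Galore (0.4.3.0) and FastQC (0.67), and list DESeq2 (2.11.40.1) and the builds mm10 and GRCm38. How strand was set, and which annotation was counted, is not given in the sources used here. Fold changes in the authors' deposited table were read as Cre over Flp because all 9 members had the sign fitted here.

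Positions, symbols and exon lengths came from GENCODE M21 (GRCm38), which held 49412 of 49671 identifiers. The main tool was edgeR 4.0.16 in R 4.3.3 (filterByExpr, TMM, quasi-likelihood test, clone as a block, 2 residual degrees of freedom), with limma 3.58.1 and DESeq2 1.42.0 as alternatives. P-values were adjusted by Benjamini-Hochberg over all genes tested, at a threshold of 0.05, and each SE is the log2 fold change over the root of F. Clone ratios used a prior count of 2. Neighbour medians took tested genes of at least 1 CPM within 10 Mb, with windows of 5 and 2 Mb as alternatives. Fits were tested on simulated data. Figures used matplotlib 3.10.9.

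The block follows the series' design. After subtracting group means, the Cre and Flp libraries had r of 0.20 for clone 4, 0.11 for clone 7 and 0.30 for clone 21, against -0.27 to 0.02 across clones. All library pairs differed beyond sampling noise (chi-square per degree of freedom at least 38.3).

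Members and lists were chosen with earlier results of these data known. Named were every member, up to 4 genes of each list at an unadjusted p under 0.05, the 2 most abundant per kb of each list, and the 3 genes most like Thbd and Serpine2. Plg, Proc, Fgg, Kng1, the F genes and single markers at or near 0 were named beside this rule. The result of 1 list gene, and the values that need it, are not reported here.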

Additional observations from a re-analysis of the deposited data

Results flagged for a closer look

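A2m, an inhibitor list gene, was higher in Cre of clone 4 (log2 ratio 1.24) and lower in Cre of clone 7 (-3.50) and clone 21 (-3.63), more than 1.5-fold in opposite directions between clones. Each clone has 1 pair of libraries, so this difference was not tested.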

How the results depend on the processing

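Over 11 alternatives the direction of the fold change held for all 9 members, with log2 fold changes from -1.26 to -0.95 for Thbd, -0.51 to -0.48 for F3, -2.44 to -1.78 for Habp2, 1.09 to 1.67 for Serpine2, 0.71 to 2.07 for Tfpi and -0.86 to -0.15 for Procr. Plat ranged from 0.19 to 0.60, Plau from -0.57 to -0.17 and Plaur from -0.37 to -0.19. Over all genes, Cre against Flp gave 0 calls by edgeR, 196 by DESeq2 with the replicate block, 14 by DESeq2 without it and 224 in edgeR with no filter on low counts. Leaving out each clone in turn gave 0 to 0 calls. Without the block edgeR called 0 genes, and DESeq2 called 1 member, Serpine2. The clone term called 1 gene by edgeR, 414 by the DESeq2 likelihood ratio test, 0 by limma-voom, 2 without the group term, 519 with no filter and 0 at a mean of at least 1 CPM. The causes were not tested. Among list genes, alternatives added after the data were seen turned the sign of log2 fold changes near 0. Leaving out each clone in turn gave -0.16 to 0.13 for Vwf, -0.13 to 0.044 for Pros1, -0.25 to 0.036 for F2r, -0.10 to 0.073 for Anxa2, -0.31 to 0.024 for Serpinh1 and -0.10 to 0.56 for Spint2. Pros1 was at 0.00061 with total counts, and Anxa2 at -0.0023 in edgeR and -0.0043 in DESeq2 without the block. Of 27 neighbour medians, 9 moved with a 5 Mb window and 12 with a 2 Mb window. At 2 Mb they lay between -0.12 and -0.10 for Tfpi, -0.10 and 0.14 for Serpine2, -0.32 and 0.25 for Plau and -0.24 and 0.11 for Plaur. Depth limits Habp2 and Fgg in Cre clone 7 and Prss22 in the Cre libraries.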
